A study of Homo sapiens with 16 samples.

Results

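ETS proteins are transcription factors that share a DNA-binding domain, and m6A was measured on the transcripts of 10 of them in prostate cancer cells. The genes were ETV1, ETV4 and ETV5 of the PEA3 subfamily, ERG, the repressors ETV3, ERF and ETV6, and the epithelial members ELF3, EHF and SPDEF. A region counted as a member when at least 50% of its bases lay within the GENCODE span of 1 of these genes, and 19 of the 36970 merged regions of the series did so. The 8 peak lists held 96 peaks with a summit in these spans, of 191974 peaks in all.

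In prostate cancer, ETV1, ETV4, ETV5 and ERG are best known as oncogenes that rearrangements place under the control of androgen-driven genes. The LNCaP cell line, from which C4-2B descends, carries ETV1 inserted in MIPOL1. ELF3, EHF and SPDEF are expressed in epithelia and are linked to luminal identity, while ERF and ETV3 repress genes that growth factor signalling through ERK activates. N6-methyladenosine (m6A) is a methyl mark on adenosine that the METTL3 complex writes on mRNA, often near the stop codon, and that reader proteins link to mRNA decay, translation and splicing.

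MeRIP-seq enriches methylated RNA fragments with an antibody against m6A (IP) and compares them with the unenriched RNA (input). The cells were the human prostate cancer line C4-2B, which enzalutamide inhibits, and its enzalutamide-resistant derivative MDV-R, obtained by serial passage, kept on the drug in culture and labelled wild type like its parent, with 4 IP and 4 input libraries per line, all from day 3. The MDV-R titles also carry the name T24R2, and the cell line field (MDVR) was followed. Each line is 1 resistant or sensitive derivative, and the sources used here do not say that replicates were separate cultures, so p-values measure the spread between these libraries, which may be technical.

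The cells were checked against marker lists. All 7 prostate markers examined (HOXB13 and FOXA1 among them) held a region, and each list called 5 to 7 of them. Of 8 urothelial markers 2 held a region (UPK2 and UPK3A), as did 1 of 5 neuroendocrine markers (ENO2) and 3 of 4 mesenchymal markers (VIM, COL1A1 and ZEB1). KRT5, TP63, GATA3, CHGA and SYP held none. A UPK2 region was called in all 8 lists, and its IP signal (defined below) was higher in MDV-R by 0.595 on the log2 scale. That call was shared by 24.9% of all regions tested. Of the 7 prostate marker regions called in all 8 lists, 1 was higher and 2 were lower in IP signal. The share of all genes that held a region is not given here, so these gene counts and those below stand without a comparison. The lists had 13191 to 30645 peaks, and the tags (deduplicated reads or fragments) under their summits summed to 0.718 to 1.09 M. C4-2B replicate 1 stood apart with the fewest peaks and the lowest median fold enrichment (7.43, against 10.2 to 16.6 in the other lists over the 9327 regions called in all 8). MDV-R replicate 3 stood apart from its line with a median background of 14.9 times the library average, against 6.19 to 8.46. The input library was 0.747 to 1.22 times as deep as its IP library in C4-2B and 1.56 to 3.15 times in MDV-R, so that relative input depth and line cannot be told apart. The 1.56 belonged to MDV-R replicate 3, against 2.705 to 3.15 in the rest of its line.

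Each region is given with its fold enrichment, IP signal and local background. The fold enrichment is the authors' ratio of IP to local background. It has a constant added to both sides, which lowers it most where the background is low, and is taken at the strongest summit. The IP signal is the number of IP tags at that summit, and the local background the input level around it, both recovered from the deposited statistics and expressed as multiples of the average pileup of the library. The background follows the abundance of the transcript only roughly, and in these bulk samples fewer cells with a transcript and less of it per cell cannot be told apart.

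At least 1 region was found in 7 of the 10 genes, and 5 genes held a region called in all 8 lists. The summits of these regions lay inside the last exons of ETV3, ETV6, ERF, ELF3 and EHF. The following sequences show the motif nearest to the strongest summit in the regions that the results turn on, each 21 nt of hg38 on the strand of the gene, with the motif in capitals. GGAC is shown where it lay within 50 nt of the summit, and otherwise DRACH, the wider m6A consensus (A, G or T, then A or G, then AC, then A, C or T), which contains GGAC when A, C or T follows.
ETV3 CDS: tcagctgcTGACTggcgccgg
ETV6 CDS, last exon: agctggatGAACAaatatacc
ERF CDS: ccccactcGGACgccggcagc
ELF3 CDS: agtgacgtGGACctggatccc
ELF3 3′UTR: tcctgggaGGACaggcaggcc
SPDEF 3′UTR: cccctggaGGACagagggaga
SPDEF 5′UTR: ggggtaggGGACtccctacag
EHF CDS: gtgtggatGGACgaagactgg
EHF 3′UTR: cttctaaaAGACTcctctgat
The adenosine of the motif lay 3 nt from the summit in the ELF3 coding region, 6 nt in the SPDEF 5′UTR, 18 nt in the SPDEF 3′UTR and 1 nt in the EHF 3′UTR. It lay farther off in the ELF3 3′UTR (45 nt), the EHF coding region (35 nt) and ERF (34 nt), and at 10 nt in ETV3 and ETV6. GGAC was found on the gene strand within 50 nt of the summit in 9 of the 17 exonic ETS regions (52.9%), beside 45.5% of 19862 exonic regions of the series. Within 25 nt the order turned, with 23.5% of the ETS regions beside 27.0%. DRACH was found within 50 nt in 16 of the 17, beside 88.1%, and within 25 nt in 64.7%, beside 68.0%. A match describes these letters and does not locate a methylated base.

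Of the 19 regions, 7 lay in coding sequence, 6 in 3′UTRs, 3 in 5′UTRs, 2 in introns and 1 in a non-coding exon. Read on 1 canonical transcript per gene, 1 region lay in a 5′UTR and 4 in introns, and the counts in coding sequence and 3′UTRs were the same. Over all 35509 called regions on the main chromosomes, 25.2% lay in coding sequence, 13.6% in 3′UTRs and 31.9% in introns. On the canonical transcript of each gene, the summit of the second ETV6 region lay 17 nt before the end of the stop codon, and that of the EHF coding region 95 nt before it. The summit of the ELF3 3′UTR region lay 111 nt after the stop codon, in exon 9 of 9, and that of the SPDEF 3′UTR region 252 nt after it, in exon 6 of 6. The second EHF region lay far from these, 3274 nt into a 3′UTR of 4357 nt.

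**Figure D1:**
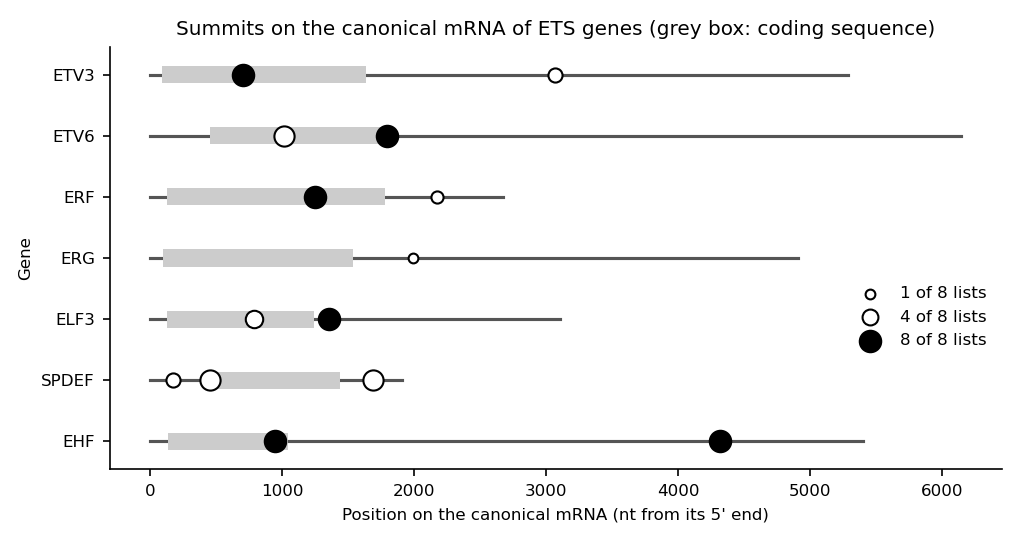
Position of each exonic summit on the canonical mRNA of the 7 ETS genes with a region (horizontal axis, nt from the 5′ end; grey box, coding sequence). Point size gives the number of lists that called the region, and black marks the 6 regions called in all 8. For ETV6, ELF3 and EHF a black point sits close to the end of the grey box. The other black point of EHF lies far into the 3′UTR.

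The first question was which ETS mRNAs carried a called region in each line. Each of the 19 had a peak in at least 1 list, 6 of them in all 8 (31.6%, where the background over 36076 called regions was 25.9%). None was called in 4 of 4 lists of a line and in 0 of 4 of the other, against a background of 1.22% of regions for C4-2B and 3.68% for MDV-R. More MDV-R than C4-2B lists called 11 regions, more C4-2B than MDV-R lists called 2, and 6 were called equally often, where 49.7% of all called regions were called in more MDV-R lists. The number of ETS regions called was 6, 15, 10 and 9 in C4-2B replicates 1 to 4 and 12, 14, 11 and 17 in MDV-R replicates 1 to 4, so the lines overlapped. By Fisher's exact test (two-sided, 4 lists against 4, which cannot go below 0.0286) the lowest p among the 19 was 0.143 and the lowest adjusted p 0.997. After adjustment none of the 36076 called regions passed, those called in 4 of 4 and 0 of 4 lists included. With these lists the adjusted test could therefore not separate the lines at any region.

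ETV1, ETV4 and ETV5, the PEA3 factors that activate genes of growth and invasion, held neither a region nor a peak in any of the 8 lists. Their spans on hg38 are chromosome 7, 13891229 to 13991425 (ETV1), chromosome 17, 43527844 to 43579620 (ETV4), and chromosome 3, 186046314 to 186110318 (ETV5), all on the minus strand. The nearest merged region lay 323.6 kb from ETV1 (in DGKB), 14.9 kb from ETV5 (in DGKG) and 3.52 kb from ETV4 (in DHX8). The weakest peaks of the lists rested on 4 to 6 tags, so a site with fewer tags than that was not detectable at this depth. ERG, the partner of TMPRSS2 in the commonest prostate cancer fusion, held 1 region in its 3′UTR (chromosome 21, 38382709 to 38383001), called in MDV-R replicate 1 alone, where it rested on 7 tags and a fold enrichment of 6.15.

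**Figure D2:**
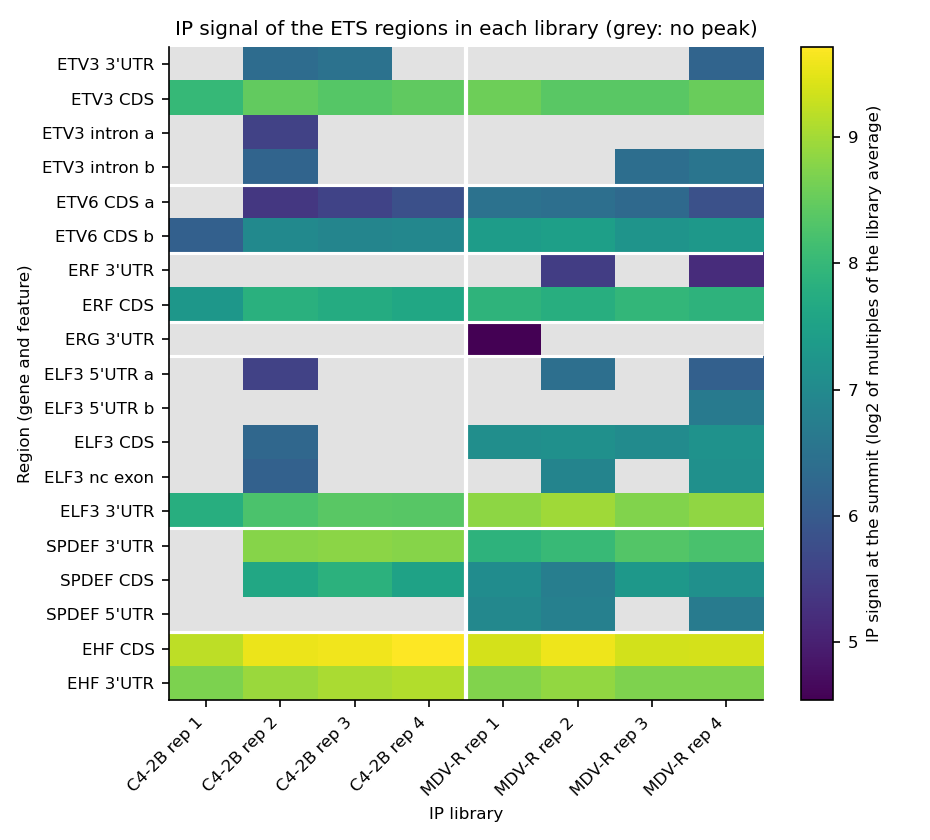
IP signal of the 19 ETS regions (rows, gene and feature in genome order within a gene) in the 8 IP libraries (columns), as log2 of multiples of the library average; grey marks a library without a peak. The EHF coding row is the brightest in every library, the ERG row has 1 filled cell, and the SPDEF rows are empty in C4-2B replicate 1.

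EHF, an epithelial ETS factor of the airway, prostate and other glands, had the highest IP signal of the 10 genes in both lines, but also the highest background and the lowest fold enrichment among the 6 regions called in all 8 lists. Its coding region (chromosome 11, 34658326 to 34659473, exon 9 of 9) had 236, 252, 240 and 241 IP tags at the summit in C4-2B replicates 1 to 4 and 201, 241, 224 and 199 in MDV-R. The IP signal averaged 736 ± 106 times the library average for C4-2B libraries and 689 ± 52.9 for those of MDV-R (SD, n = 4), above 99.8% and 99.7% of the regions called in all 8 lists. Its background lay above 99.9% and 99.7% of them, and its fold enrichment above only 0.568% and 6.18%. In IP signal the libraries of the lines overlapped.

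The background around the same EHF site separated the lines. It was 256, 200.2, 209 and 256 times the library average in C4-2B and 95.5, 79.9, 144.5 and 69.3 in MDV-R, with every MDV-R library below every C4-2B library. Over all regions tested, 15.5% had libraries without overlap in this direction. Fold enrichment ran the other way, at 2.27, 3.70, 3.65 and 3.24 in C4-2B and 6.81, 9.29, 4.46 and 9.22 in MDV-R, again without overlap, which 10.2% of regions showed in that direction.

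With each library centred on its median region, the EHF background fell by 0.80 on the log2 scale (SE 0.103, limma adjusted p = 0.000186), a call that 9.74% of 9324 regions shared in that direction. Fold enrichment of the EHF coding region rose by 0.78 (SE 0.184, limma adjusted p = 0.0266), which 0.901% of 9327 regions did. The IP signal fell by 0.17 (SE 0.0625, limma adjusted p = 0.0228), which 29.2% of 9324 regions did. Without centring the background fell by 1.29 and the IP signal by 0.09 (limma adjusted p = 0.616 for the latter). The fall in background passed the test when any 1 library was left out (limma adjusted p 0.000582 to 0.000977), and with quantile normalization it was -0.34 (0.0254). The rise in fold enrichment passed only without MDV-R replicate 3 (0.00992) and reached an adjusted p of up to 0.0856 without any other library. The fall in IP signal was not called without C4-2B replicate 1, 3 or 4 or MDV-R replicate 4 (limma adjusted p up to 0.0649).

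The EHF 3′UTR region (chromosome 11, 34661950 to 34662566) moved like the coding region in background. Its summit held 165, 165, 166 and 160 tags in C4-2B and 128, 148, 143 and 125 in MDV-R, so the raw tags did not overlap. The share of all regions with raw tags apart in this way is not given here. As multiples of the library average the IP signal was 498 ± 64.2 and 433.5 ± 25.8 (SD, n = 4), and these values overlapped. The background averaged 121 ± 21.7 for C4-2B and 58.9 ± 26.0 for MDV-R, with no overlap. After centring, the background fell by 0.62 (SE 0.134, limma adjusted p = 0.00647) and the IP signal by 0.28 (SE 0.064, limma adjusted p = 0.000594). With quantile normalization the difference in background was -0.26 and no longer passed (limma adjusted p = 0.19). The difference in fold enrichment was 0.47 (SE 0.21, limma adjusted p = 0.239), short of the threshold. Without centring the difference in IP signal was -0.19 (limma adjusted p = 0.241).

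SPDEF, the prostate-derived ETS factor of luminal cells, had no peak in C4-2B replicate 1, so its regions were tested only among the 13507 regions called in at least 3 lists of each line, with 3 C4-2B libraries. Its 3′UTR region (chromosome 6, 34537808 to 34538640, minus strand) had 148, 139 and 126 tags in C4-2B replicates 2 to 4 and 71, 82, 110 and 89 in MDV-R replicates 1 to 4. Every MDV-R library lay below every C4-2B library with a peak, with only 3 libraries on the C4-2B side. The share of all regions that separated in this direction is not given here. The IP signal averaged 441.5 ± 4.82 for C4-2B (SD, n = 3) and 279 ± 37.8 for MDV-R (SD, n = 4). It fell by 0.64 (SE 0.0823, limma adjusted p = 4.62e-07), which 26.1% of these regions did.

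The SPDEF background fell with it, from 61.3 ± 6.77 (SD, n = 3) to 21.2 ± 9.07 (SD, n = 4), by 1.18 (SE 0.187, limma adjusted p = 0.00187), which 8.22% of these regions did. The difference in fold enrichment was 0.56 (SE 0.268, limma adjusted p = 0.279), and among these regions 1.02% rose and 1.78% fell in it. The SPDEF coding region in exon 2 of 6 (34544053 to 34544708) had 67, 72 and 53 tags in C4-2B replicates 2 to 4 and 40, 34, 54 and 42 in MDV-R. Its IP signal fell by 0.58 (SE 0.127, limma adjusted p = 0.000468). Its background differed by -0.92 (SE 0.351, limma adjusted p = 0.103) and overlapped between the lines.

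The third SPDEF region covered the 5′ end (34555980 to 34556418, 80.6% of it inside the gene) and had no C4-2B peak. It was called in 3 of 4 MDV-R lists, with 37, 35 and 31 tags in MDV-R replicates 1, 2 and 4. A difference of at least 3 lists in favour of MDV-R was found in 10.6% of all called regions and, of the ETS regions, in this one and in the ELF3 coding region. No ETS region differed so in favour of C4-2B, which 3.73% of all called regions did. The Fisher p of each was 0.143. Leaving out MDV-R replicate 3 made the SPDEF 5′UTR region a region called in MDV-R only.

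ELF3, another epithelial ETS factor and a close relative of EHF, held 5 regions, the most among the 10 genes. Its 3′UTR region (chromosome 1, 202014934 to 202016553) had 89, 102, 104 and 95 tags in C4-2B and 136, 158, 146 and 138 in MDV-R, without overlap. The IP signal averaged 297 ± 52.5 for C4-2B and 461 ± 32.0 for MDV-R (SD, n = 4). It rose by 0.57 (SE 0.0696, limma adjusted p = 5.86e-08), a 1.48-fold rise relative to the median region, and 24.9% of 9324 regions rose in IP signal. Libraries without overlap in this direction were found in 20.8% of regions. Leaving out any 1 library kept this call, with limma adjusted p up to 1.26e-06.

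The ELF3 background was 26.6, 11.8, 13.8 and 14.3 times the library average in C4-2B and 19.3, 15.4, 30.03 and 12.4 in MDV-R, and the lines overlapped. Its centred difference was 0.70 (SE 0.249, limma adjusted p = 0.0705). It passed without C4-2B replicate 1 (limma adjusted p = 0.0224), the library with the highest value of its line, and with quantile normalization (0.84, limma adjusted p = 0.0277). Without centring it was 0.21 (limma adjusted p = 0.754). Fold enrichment averaged 16.7 ± 6.19 for C4-2B and 22.5 ± 7.48 for MDV-R (SD, n = 4), and the centred difference was 0.07 (SE 0.25, limma adjusted p = 0.921). The sign of that difference turned without C4-2B replicate 1.

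The ELF3 coding region (202012414 to 202013271, exon 6 of 9) was called in C4-2B replicate 2 alone of its line, with 26 tags, and in every MDV-R list, with 41, 44, 45 and 43 tags. Without C4-2B replicate 2 it became a region called in MDV-R only. The other ELF3 regions were called in 1 to 3 lists, with 16 to 42 tags, among them C4-2B replicate 2 in 2 regions and MDV-R replicate 4 in all 3. One more ELF3 peak (MDV-R replicate 4, 19 tags) and 1 ETV3 peak (the same library, 10 tags) lay outside the merged regions.

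ETV6, a repressor with a domain through which it forms polymers, rose in IP signal at both of its regions. The region at the stop codon (chromosome 12, 11890739 to 11891488, exon 8 of 8) had 28, 43, 37 and 35 tags in C4-2B and 51, 55, 51 and 47 in MDV-R, without overlap. The IP signal did not overlap either, which 20.8% of regions showed in that direction. Its IP signal averaged 109.5 ± 26.8 for C4-2B and 163 ± 11.9 for MDV-R (SD, n = 4) and rose by 0.53 (SE 0.123, limma adjusted p = 0.000624). Its background was 16.1 ± 0.944 and 16.7 ± 7.25 (SD, n = 4), and its centred difference of 0.44 (SE 0.234) had a limma adjusted p of 0.223. Its fold enrichment differed by 0.22 (SE 0.23, limma adjusted p = 0.672).

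The other ETV6 region (11869232 to 11869810, exon 5 of 8) was missing from C4-2B replicate 1 and was fitted without it. It had 14, 15 and 16 tags in C4-2B replicates 2 to 4 and 27, 27, 27 and 17 in MDV-R. The IP signal rose by 0.70 (SE 0.202, limma adjusted p = 0.00569), as in 23.8% of these regions, and so did the background, by 1.42 (SE 0.335, limma adjusted p = 0.0155), where 6.26% of 13507 regions rose in background. The background of MDV-R replicate 3 there was 31.9, against 7.42 to 13.3 in the other MDV-R libraries.

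**Figure D3:**
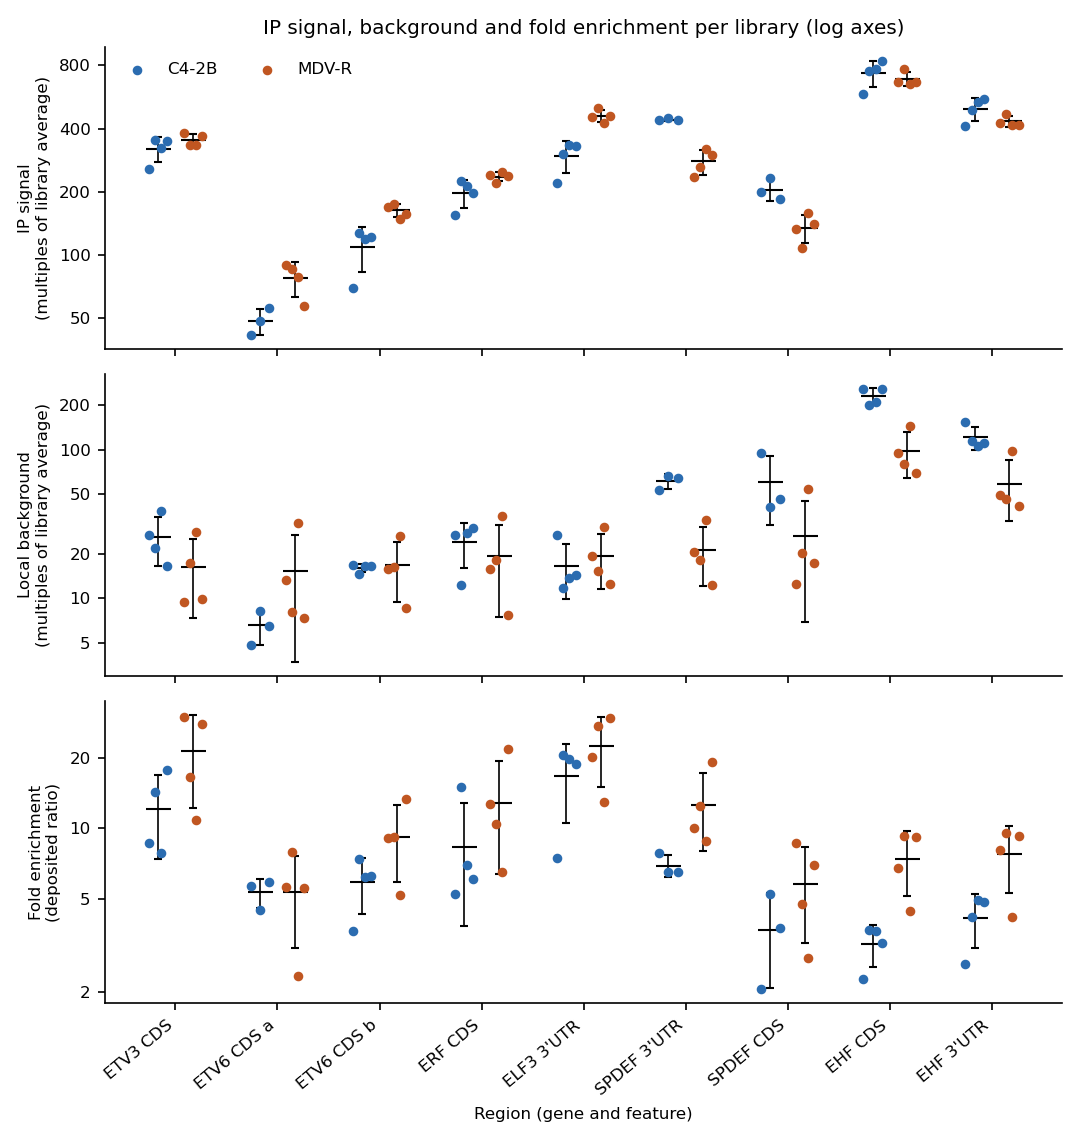
IP signal, local background (both as multiples of the library average) and deposited fold enrichment on log axes for the 9 ETS regions called in at least 3 lists of each line; points are libraries, bars the mean ± SD. IP signal of ELF3 and ETV6 lies higher and that of SPDEF lower in MDV-R, and the EHF background lies lower in MDV-R in all libraries.

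The repressors ETV3 and ERF had coding regions called in all 8 lists, and neither passed a test with all libraries and median centring. The ETV3 region (chromosome 1, 157124768 to 157126199, exon 5 of 5) had 103, 119, 101 and 101 tags in C4-2B and 114, 105, 115 and 110 in MDV-R. Its summit lay 927 nt before the end of the stop codon. The lines overlapped, and the centred difference in IP signal was 0.07 (SE 0.0735, limma adjusted p = 0.456). Fold enrichment was 8.66, 14.3, 7.85 and 17.8 in C4-2B and 29.98, 16.6, 10.9 and 28.1 in MDV-R, with overlap and a limma adjusted p of 0.546.

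The ERF region (chromosome 19, 42248459 to 42249926, exon 4 of 4) had 62, 76, 66 and 57 tags in C4-2B and 72, 69, 85 and 71 in MDV-R, again with overlap. Its IP signal differed by 0.19 (SE 0.0854, limma adjusted p = 0.0634), its background by 0.05 (SE 0.303, limma adjusted p = 0.929) and its fold enrichment by 0.22 (SE 0.307, limma adjusted p = 0.768). The difference in ERF IP signal passed with quantile normalization (limma adjusted p = 0.0451) and without C4-2B replicate 2 (0.0314) or MDV-R replicate 2 (0.0338). A weaker region in the ERF 3′UTR was called in MDV-R replicates 2 and 4, with 14 and 11 tags. The 3 weaker ETV3 regions, 1 in the 3′UTR and 2 in introns, were called in 1 to 3 lists with 16 to 29 tags.

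Among the 6 ETS regions called in all 8 lists, 2 rose and 2 fell in IP signal, where 54.1% of all regions tested changed either way. Background fell in 2 and rose in none, where 16.4% changed either way and 6.62% rose. Fold enrichment rose in 1 and fell in none, where 2.67% changed either way and 1.77% fell. On simulated data the tests of background and fold enrichment missed more shifts than that of IP signal, as given below. The median differences of the 6 were 0.13 in IP signal, -0.11 in background and 0.30 in fold enrichment. Sorted by level, the IP signal in C4-2B ran from the EHF coding region through the EHF 3′UTR, ETV3, ELF3 and ERF to ETV6, and in MDV-R ELF3 came second. Neighbours in that order that lay within 1 SD of each other were ETV3 and ELF3 in C4-2B and ELF3 and the EHF 3′UTR in MDV-R.

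**Figure D4:**
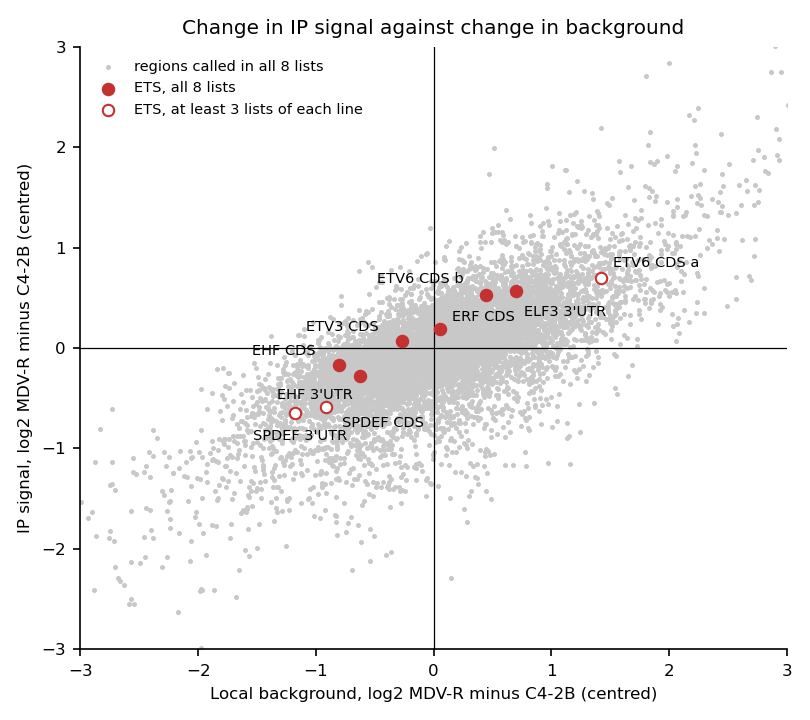
Change in IP signal (vertical) against change in local background (horizontal), both log2 of MDV-R minus C4-2B after centring, for 9276 regions called in all 8 lists (grey; 48 lie beyond the axes). Filled red points are the 6 ETS regions called in all 8 lists and open points the 3 called in at least 3 lists of each line; SPDEF and EHF sit at the lower left, ELF3 and ETV6 at the upper right.

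The other ETS genes were described in the same way. Of 19 further family members 13 held a region. In these, 28 regions were called and 9 of them in all 8 lists (32.1%, beside 25.9% of all called regions). In IP signal 4 of the 9 fell and none rose, where 29.2% of all regions tested fell and 24.9% rose. The 4 were GABPA (5′UTR, -0.87, limma adjusted p = 7.21e-07), ELF2 (exon at 139058640, -0.40, 7.99e-06), SPIC (-0.43, 0.0395) and ELK3 (-0.35, 0.0492), the last 2 close to the threshold. In background 1 fell, where 9.74% of all regions did, the other ELF2 coding region (-1.08, limma adjusted p = 0.0155), and none passed in fold enrichment. The 3′UTR of ELK4, a ternary complex factor that androgen induces, held the 1 region called in all MDV-R lists and no C4-2B list, as 3.68% of all called regions were.

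A further list took genes that control ETS proteins or answer to ERK. It held CIC, which represses ETV1, ETV4 and ETV5 together with ATXN1 and ATXN1L, the ligase parts COP1, DET1 and SPOP, and feedback inhibitors of ERK signalling (DUSP, SPRY and SPRED genes). Of its 18 genes 17 held a region, and all 8 lists shared 14 of its 50 called regions (28.0%, beside 25.9% of all called regions). In MDV-R only, 5 were called (3.68% of all called regions), 3 of them in ATXN1 and 1 each in CIC and DET1. In IP signal 4 rose and 5 fell, where 24.9% and 29.2% of all regions tested did, and in background 1 rose and 3 fell, where 6.62% and 9.74% did. The ATXN1 coding region rose by 1.68 in IP signal (limma adjusted p = 2.85e-15) and by 2.65 in background (0.000154). IP signal also rose at TRIB1 (0.55, limma adjusted p = 4.41e-07), SPRED1 (0.26, 0.00535) and the SPOP 3′UTR (0.20, 0.0189). The feedback genes moved both ways. SPRY2 (-0.52, limma adjusted p = 0.0247) and SPRED2 (-0.16, 0.0425) fell in IP signal. Their differences in background, -0.81 for SPRY2 (limma adjusted p = 0.214) and -0.97 for SPRED2 (0.0975), did not pass. DUSP4, in its 5′UTR and 3′UTR, and SPRY1 fell in both measures. The DUSP4 3′UTR stood at -1.70 in IP signal (limma adjusted p = 1.42e-16) and -2.94 in background (2.64e-05). SPRY1 stood at -1.87 (4.04e-15) and -2.87 (6.16e-05). None of the 14 passed in fold enrichment.

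The genes that prostate cancer rearrangements join to ETS genes formed the last list. All 10 held a region, and 6 of their 39 called regions were called in all 8 lists (15.4%, beside 25.9% of all called regions). Of these 6, in IP signal 2 rose and 4 fell (24.9% and 29.2% of all regions tested), in background 2 fell (9.74%), and in fold enrichment 1 rose (0.901%). The risers in IP signal were HERPUD1 (0.59, limma adjusted p = 2.72e-08) and a FOXP1 coding region (0.37, 0.000149), while a non-coding exon of FOXP1 (-0.55, 0.00342) and HNRNPA2B1 (-0.23, 0.00762) fell. MIPOL1, the host of the ETV1 insertion in LNCaP, held 14 regions, none of them called in all 8 lists. It and TMPRSS2 are named for their part in ETS fusions, after their values were seen. TMPRSS2 held 3, each missing from 1 C4-2B list and present in every MDV-R list. The 3′UTR of KLK2, an androgen-driven kallikrein, fell by 2.83 in background (limma adjusted p = 5.32e-08) and by 0.80 in IP signal (1.42e-12) and rose by 2.00 in fold enrichment (0.000205). SLC45A3, a prostate-specific transporter gene, fell by 1.43 in IP signal (limma adjusted p = 4.37e-12). Its background differed by -2.31 (0.000261).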

How the data were processed

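MeRIP-seq libraries of C4-2B and MDV-R cells were grouped by the labels' cell line and antibody fields. The authors used STAR 2.7.0 with GENCODE on hg38 for alignment, samtools 1.10 to keep unique, deduplicated reads, and called peaks per IP library over input with MACS2 (3.0.0a6 per the labels). Each deposited peak carries a fold enrichment (a ratio), −log10 p, −log10 q and a score; the deposited merged list holds regions without values.

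A whole number of IP tags that gives both the fold enrichment and the p was found for 99.993% to 100.0% of peaks per list (relative tolerance 2e-05), which also gives the local background. The solver returned known values on simulated data. The simulated backgrounds were lower than those recovered at the 2 EHF regions, so the check does not cover those values. The stated extension (100 nt) and genome size (300.0 Mb) could not be matched to the lists, whose shortest peaks were 239 to 293 nt, so library sizes are unknown and values are multiples of the average background. This replaced the intended CPM, and centred tests are unaffected.

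An overlap of 1 bp with a peak made a region called in that list. Log2 values of the strongest peak, centred on each library's median, were compared with limma 3.58.1 (R 4.3.3; lmFit, eBayes with trend) over all regions called in all 8 lists, with Benjamini-Hochberg adjustment and a threshold of 0.05. Calls were compared with Fisher's exact test. The fits were tested on simulated data in which 100 regions were shifted by 1 on the log2 scale. Of these 100 they recovered 94 in IP signal, 48 in fold enrichment and 19 in background. A difference in background or fold enrichment that did not pass is thus no evidence of equal levels. Regions were annotated with GENCODE release 44 (the authors used release 39). Named were all 10 genes, in full those called in all 8 lists or differing by at least 3 lists, and genes of other lists where a region was called in a single line or passed a test; MIPOL1 and TMPRSS2 are exceptions. Members and lists were chosen with earlier results of these data known. Some items of the prostate marker list are not reported here. The alternatives tried were −log10 q cut at 5, lists of equal size, other overlaps and memberships, an own union, no centring, quantile normalization, regions called in at least 3 lists of each line, means over peaks, permutation, replicate numbers as pairs and omission of each library in turn. Same-numbered libraries did not deviate together.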

Additional observations from a re-analysis of the deposited data

Results flagged for a closer look

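In 6 of 48 sets of 4 libraries examined (the 3 measures at each ETS region with a peak in every list of a line), 1 library lay far from the other 3 by Dixon's test on log2 values, which chance does in about 1 of 20 sets. C4-2B replicate 1 was low at the ETV6 stop codon in IP signal (69.6, against 119 to 128) and at the ELF3 3′UTR in fold enrichment (7.50, against 18.8 to 20.7). C4-2B replicate 2 was low in background at the ETV6 stop codon (14.7, against 16.4 to 16.6) and at the ERF coding region (12.2, against 26.6 to 29.6). MDV-R replicate 2 was high in IP signal at the EHF coding region (768, against 654 to 669) and at the EHF 3′UTR (472, against 418 to 426).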

How the results depend on the processing

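No ETS region was called in a single line under any alternative except when C4-2B replicate 2 (the ELF3 coding region) or MDV-R replicate 3 (the SPDEF 5′UTR) was left out, so the range for MDV-R was 0 to 1. Pairing by number (replicate block) gave 0 regions by a sign test, which 4 pairs cannot bring under the threshold, and changed no call at an ETS region in the limma fits. Leaving out each library gave 0 to 1 ETS regions higher in fold enrichment, 2 to 3 higher and 1 to 2 lower in IP signal and 0 to 1 higher in background; the gain in IP signal was ERF, without C4-2B replicate 2 or MDV-R replicate 2, and also with quantile normalization (3). Without centring 0 were lower in IP signal. With regions called in at least 3 lists of each line 4 of 9 were lower in IP signal and 1 was higher in background. With a −log10 q of at least 5, ELF3 alone was higher in IP signal. The ETV6 region at the stop codon was then not called in every list and was not tested. With quantile normalization 1 was higher (ELF3) and 1 lower in background (the EHF coding region, with the EHF 3′UTR lost). The exact permutation test, whose smallest p is 0.0286, passed 0 regions in each measure. Its lowest adjusted p among the ETS regions was 0.0618 in IP signal, 0.135 in background and 0.267 in fold enrichment. GGAC within 25 nt was found at 4 of 17 exonic regions (23.5%, beside 27.0% of all), and DRACH within 50 nt at 16. Signs turned where no difference had passed: ELF3 fold enrichment without C4-2B replicate 1 (-0.13; range over left-out libraries -0.13 to 0.168), background without centring at ETV6 (-0.0486) and ERF (-0.439), and ERF background without C4-2B replicate 2, MDV-R replicate 2 or MDV-R replicate 3 (range over left-out libraries -0.207 to 0.266). The cause was not tested. Over all regions, 84 were higher and 165 lower in fold enrichment with centring and 282 and 20 without, 2321 and 2725 against 1937 and 1384 in IP signal, and 617 and 908 against 168 and 1252 in background. The SPDEF 3′UTR and coding regions and the ETV6 region in exon 5 were fitted only among regions called in at least 3 lists of each line. The other alternatives of the limma fits did not cover them. Tags per summit limit the weaker regions: those called in 1 to 3 lists rested on 7 to 42 tags.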
